A study of Homo sapiens with 18 samples.

Results

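The comparison set the RB1-deleted clone E1 of the rhabdoid tumour line G401 against the RB1-intact control line, both cultured in vehicle. Its members were the genes whose mean normalized count over the 3 E1 and 3 control libraries was at least 10. This left 15116 of the 55765 genes in the table. RP11-517H2.6, with a mean of 10.0035, was the lowest gene kept, and RP11-460N20.5, with 9.99171, was the highest left out.

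G401 is a cell line from a malignant rhabdoid tumour, a childhood cancer driven by loss of SMARCB1, a core subunit of the SWI/SNF chromatin remodelling complex. RB1 had been disrupted on both alleles with CRISPR/Cas9 in clones E1 and F2, and the control cells, here called WT, had been edited at the AAVS1 safe harbour locus. Each line was grown for 11 days with dimethyl sulfoxide (DMSO), the vehicle, or with 10 µM tazemetostat, which blocks the Polycomb enzyme EZH2, and 3 biological replicates of each were profiled by poly(A)-selected RNA-seq. The comparison described here used E1 with DMSO (3 libraries, RB1 deleted) and WT with DMSO (3 libraries, RB1 intact); F2 with DMSO and the tazemetostat libraries served for reference. E1 is 1 clone, so its 3 replicates carry the spread between cultures and not between independent RB1 deletions, and the effect of RB1 loss and of the history of this clone cannot be told apart within the comparison.

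The retinoblastoma protein binds E2F transcription factors and holds back genes for entry into S phase; cyclin-dependent kinases release it by phosphorylation. CDK inhibitors such as p21 (CDKN1A) and p16 (CDKN2A) act upstream of it. In rhabdoid cells, which lack SMARCB1, the Polycomb complex PRC2, with EZH2 as its catalytic subunit, keeps many developmental and cell cycle inhibitor genes silent.

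The 6 libraries held 33838268 to 37952576 reads assigned to genes, and 18 libraries in all held 25709489 to 39314860. SMARCB1 had 0 reads in every library. A principal component analysis of the 6 libraries placed 68.4% of the variance on a first component that separated E1 from WT, and 13.7% on a second one that parted E1 replicates 2 and 3. The Pearson correlation of log2 values across genes was 0.988 between those 2 libraries, against 0.994 to 0.996 between WT libraries. Of the marker lists, endothelial, leukocyte, skeletal muscle and adipocyte genes summed to at most 17.98 normalized counts in any of the 6 libraries. Epithelial markers summed to 39337 to 43952 in WT and 56793 to 85209 in E1, most of it from the keratins KRT8 and KRT18, while KRT19 had 3 reads or fewer in each library. Fibroblast markers summed to 32078 to 35474 in WT and 36718 to 39448 in E1, and neuronal markers to 4919 to 5597 and 3873 to 8407. Fewer cells of a type and less RNA per cell cannot be told apart in such bulk libraries.

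RB1 was the first gene examined, since it checks the labels. Its normalized count was 2828, 2687 and 2565 in WT and 658, 505 and 780 in E1. Every E1 library lay below every WT library, and the mean in E1 was 24.0% of that in WT. The log2 change was -2.08 ± 0.11 (SE), with an adjusted p of 1.14e-11 by limma. An exact two-sided permutation test of the 3 against 3 values gave p = 0.1, the smallest p this design allows. F2 had 861, 804 and 852, below every WT value and above every E1 value. The tested neighbours of RB1 on chromosome 13 named here, MED4 and ITM2B on one side and RCBTB2, PSME2P2 and FNDC3A on the other, did not pass the call rule, with log2 changes from -0.28 for FNDC3A to 0.58 for PSME2P2.

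A gene was called when its Benjamini-Hochberg adjusted p in limma was under 0.05 and its log2 change, on the log2(normalized count + 1) scale, was at least 1 in size. E1 differed from WT by this rule in 657 genes, 4.35% of those tested: 330 were higher in E1 (2.18%) and 327 lower (2.16%). The adjusted p alone was passed by 1777 genes upward (11.8%) and 1786 downward (11.8%). The median log2 change of all tested genes was -0.01. The groups did not overlap in 32.3% of all genes tested and in 649 of the called genes, which were chosen on the same values. Changes of at least 3 in size on the log2 scale were made by 43 genes upward and 69 downward.

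The share of genes called was higher at low expression. Of genes with a mean of 10 to 50, 11.5% were called, and the share was 8.18% from 50 to 200, 3.17% from 200 to 1000, 0.877% from 1000 to 5000 and 0.841% above. The median SE of the log2 change was 0.31 in the lowest class and 0.08 in the highest. Of the 657 called genes, 329 had a mean under 50.

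**Figure D1:**
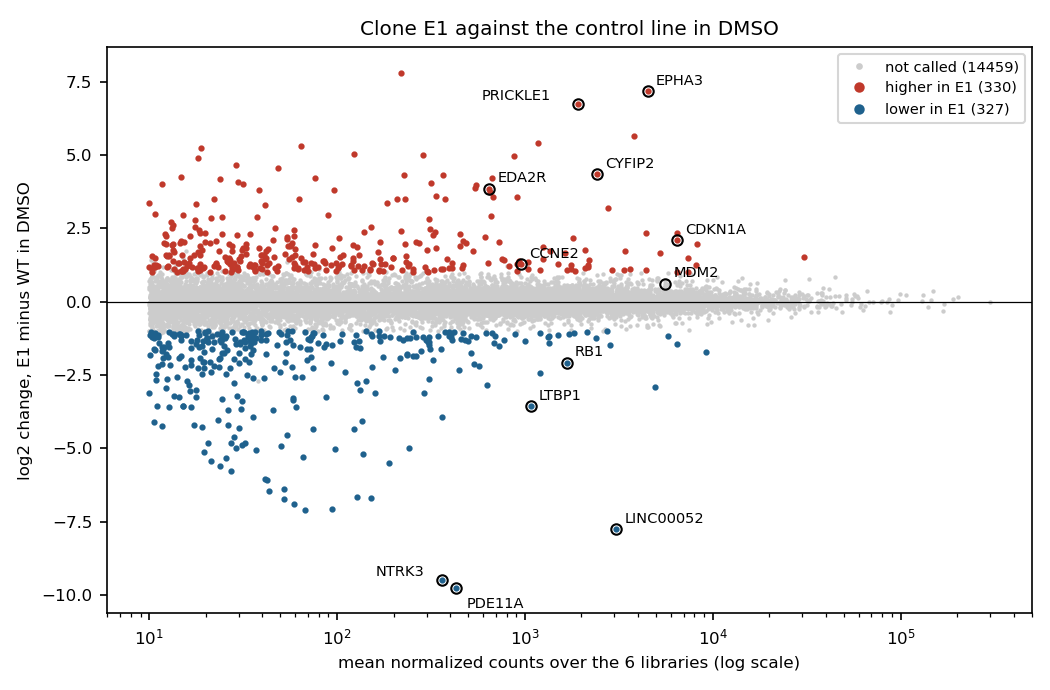
Log2 change of each tested gene, E1 minus WT in DMSO, against its mean normalized count over the 6 libraries on a log scale, with 1 point a gene. Red points mark the 330 called higher genes and blue points the 327 called lower genes; RP11-493L12.3 has the highest change (7.81), followed by the labelled EPHA3 and PRICKLE1, and PDE11A and NTRK3 stand at the bottom.

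Among genes with a mean of at least 50, several of the largest rises started from low counts in WT. EPHA3, an ephrin receptor tyrosine kinase, had 67.3, 47.1 and 70.0 normalized counts in WT and 8660, 7785 and 10373 in E1. The E1 mean was 145 times the WT mean, a log2 change of 7.17 ± 0.17 (adjusted p = 4.71e-17, limma), whereas F2 had 153, 99.6 and 164. PRICKLE1, a cytoplasmic component of planar cell polarity signalling, had 34.1, 29.2 and 39.7 in WT and 3918, 3278 and 4200 in E1. It rose by 6.75 ± 0.10 on the log2 scale (adjusted p = 1.19e-19, limma). The F2 libraries held 3681, 3374 and 3484, and E1 minus F2 was 0.11 ± 0.10 on the log2 scale (95% interval -0.11 to 0.32; adjusted p = 0.448, limma). TMEM117, a gene for a membrane protein, likewise stood at 7.86, 5.65 and 5.68 in WT, at 215, 226 and 275 in E1 and at 241, 245 and 232 in F2.

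Other large rises stood at different levels in E1 and F2. HMCN1, which encodes the matrix protein hemicentin-1, had 114, 137 and 201 in WT and 8588, 5273 and 8619 in E1, but 0, 1.04 and 0 in F2. CYFIP2, a subunit of the actin-regulating WAVE complex and a p53-induced gene, had 232, 243 and 201 in WT, 5112, 4275 and 4514 in E1 and 85.0, 107 and 89.8 in F2. Both genes were thus highest in E1 and lowest in F2, with no overlap between the 3 lines. BMP6, a bone morphogenetic protein ligand, rose from a mean of 34.0 ± 3.46 to 697 ± 11.4 (SD, n = 3), and the cytokine gene IL6 from 21.1 ± 3.28 to 434 ± 17.4 (SD, n = 3). FAM129A, a stress-induced regulator of translation, rose from 53.7 ± 3.06 to 1702 ± 175 (SD, n = 3), with 339, 324 and 282 in F2. Of transcripts known by clone names, RP11-493L12.3 had 0, 0.942 and 2.84 in WT and 417, 416 and 482 in E1, so WT held 3 reads or fewer in each library. AF127936.7 rose by 5.42 ± 0.13 and RP11-115D19.1 by 5.02 ± 0.27 on the log2 scale. RBMY2FP, a pseudogene of a multi-copy family on chromosome Y, rose by 5.32 ± 0.58, together with its neighbours TTTY25P (5.24) and RBMY1J (4.67); reads of such near-identical copies are assigned with uncertainty.

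The largest falls ended at or near 0. PDE11A, a phosphodiesterase that degrades cAMP and cGMP, had 879, 909 and 802 normalized counts in WT and 0 in each E1 library. This made it at least 305-fold lower in E1, taking 3 reads per library as the limit that a count of 0 allows. NTRK3, the receptor tyrosine kinase TrkC, had 658, 724 and 788 in WT and 0 in each E1 library, at least 255-fold lower. F2 kept both genes, with 1448, 1353 and 1279 for PDE11A and 1541, 1628 and 1740 for NTRK3. LINC00052, the long noncoding RNA gene next to NTRK3, fell from 5867, 6127 and 6264 to 27.7, 28.0 and 26.3, a level 223 times lower.

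The other falls included genes that F2 kept and genes also reduced in F2. GYLTL1B, a glycosyltransferase gene, had 293, 281 and 329 in WT and 2 reads in each E1 library. ZNF813, a zinc finger gene, and AC012499.1 had 0 reads in each E1 library, which put their levels at least 36.8-fold and 41.5-fold lower; these 3 genes had mean values in F2 at or above those in WT. LIN28B, an RNA-binding protein that blocks maturation of let-7 microRNAs, had 256, 261 and 243 in WT, 1.79, 0.965 and 1.95 in E1 and 30.7, 22.8 and 20.6 in F2. ERBB4, a neuregulin receptor, had 104 ± 4.23 in WT (SD, n = 3), 1 read in all in E1, and 6.15, 4.15 and 3.64 in F2. ADCYAP1, the gene of the neuropeptide PACAP, varied widely within WT, with 406, 103 and 58.7, and had 0 reads in each E1 library. ARSD, a sulfatase family gene, had 124, 139 and 144 in WT and 0 in each E1 library, at least 47.8-fold lower. PCDH17, a protocadherin, fell by 5.50 ± 0.46 and PGBD5, a domesticated piggyBac transposase gene, by 5.31 ± 0.22 on the log2 scale, PGBD5 from 128, 133 and 129 to 0.893, 2.90 and 3.90. In all, 36 of the 327 called lower genes had 3 reads or fewer in every E1 library, and 9 of the 330 called higher genes had 3 reads or fewer in every WT library. Such genes passed the filter through the other line alone, so these counts only describe the called genes.

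**Figure D2:**
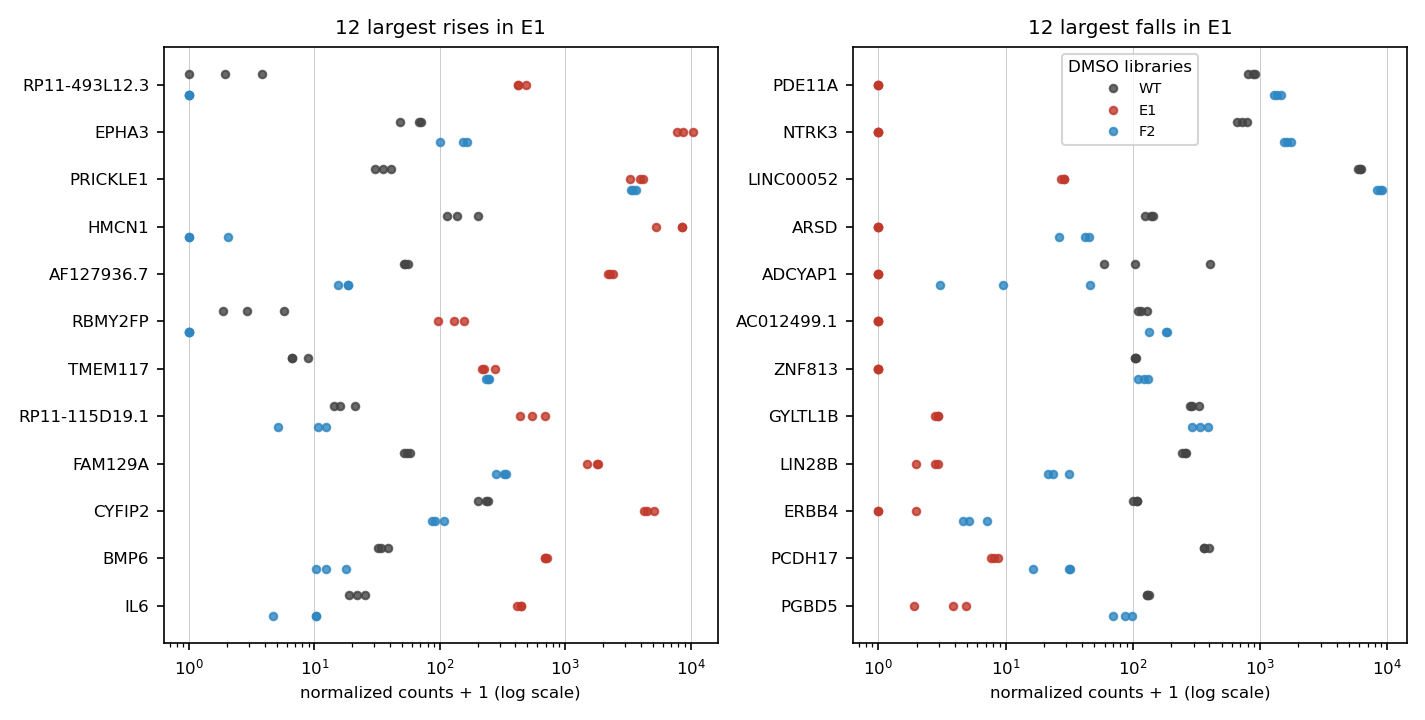
Normalized count + 1 (log scale) in each DMSO library for the 12 largest rises and the 12 largest falls, with 1 point a library in dark grey for WT, red for E1 and blue for F2. The E1 points lie apart from the WT points in each row, while the F2 points lie beside those of E1 for PRICKLE1 and TMEM117 and beside or beyond those of WT for PDE11A and NTRK3.

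Of 13 pocket protein, E2F and DP genes, 1 was called higher and 1 lower (RB1), against 2.18% and 2.16% of all genes, with a median log2 change of -0.19. By the adjusted p alone 2 were higher and 4 lower, against 11.8% of all genes each way. E2F7, a repressor of E2F target genes, had 503, 474 and 508 in WT and 1197, 971 and 1307 in E1, a rise of 1.21 ± 0.09 (adjusted p = 1.49e-09, limma). E2F8, its partner, moved the other way, from 1217 ± 50.9 to 758 ± 80.2 (SD, n = 3; log2 change -0.69), short of the fold limit. E2F1 had 1131, 1155 and 1136 in WT and 1127, 1081 and 972 in E1, a log2 change of -0.11 (adjusted p = 0.287, limma). The other pocket proteins, RBL1 with -0.22 and RBL2 with -0.20, were not called.

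In the list of G1/S and E2F target genes the median change was near 0. Of its 70 members, 1 was called higher and none lower, against 2.18% and 2.16% of all genes, and the median was 0.05. By the adjusted p alone 22 were higher and 16 lower, against 11.8% of all genes each way. CCNE2, a cyclin of the G1/S transition, had 593, 527 and 556 in WT and 1269, 1288 and 1504 in E1, while F2 had 567, 568 and 522. CCNE1, its paralogue, had 1107, 1133 and 1091 in WT and 1792, 1937 and 1770 in E1, a log2 change of 0.72 ± 0.07. TYMS and PCNA, a nucleotide synthesis enzyme and the replication clamp, followed with 0.85 and 0.75, and MCM10 and GINS4, replication initiation genes, stood at the other end with -0.62 and -0.56. Among 54 G2/M genes none was called by limma, edgeR or DESeq2 and the median was -0.06. In limma 3 were higher and 9 lower at an unadjusted p under 0.05, and 2 and 3 by the adjusted p alone. MKI67, the proliferation marker, had 13650, 16489 and 16217 in WT and 16039, 11690 and 14425 in E1, overlapping ranges. CCNA2, a cyclin of S phase and mitosis, stood in E1 at 83.1% of its WT level (log2 change -0.27 ± 0.09), and TOP2A, a mitotic topoisomerase, had overlapping groups.

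E2F factors bind short GC-rich words in the promoters of S phase genes, and 3 strongly expressed members of the G1/S list that carry such a word are shown for that reason. The window is the 250 bases before the RefSeq transcription start on build GRCh38.p14, written 5′ to 3′ on the strand of the gene. Capitals mark an E2F word, TTTGGCGC or TTTCCCGC, read on either strand.
TYMS, chr18:657403-657652, plus strand: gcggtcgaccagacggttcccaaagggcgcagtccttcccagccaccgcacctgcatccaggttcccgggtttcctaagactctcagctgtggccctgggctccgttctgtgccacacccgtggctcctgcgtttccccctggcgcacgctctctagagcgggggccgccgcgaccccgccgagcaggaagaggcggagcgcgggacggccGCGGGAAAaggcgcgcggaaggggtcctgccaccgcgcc
MCM3, chr6:52284743-52284992, minus strand: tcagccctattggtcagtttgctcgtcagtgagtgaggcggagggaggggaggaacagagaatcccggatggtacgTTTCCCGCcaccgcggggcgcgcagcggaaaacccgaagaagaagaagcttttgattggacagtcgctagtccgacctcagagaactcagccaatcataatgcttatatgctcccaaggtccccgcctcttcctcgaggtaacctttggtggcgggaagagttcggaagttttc
MCM7, chr7:100101398-100101647, minus strand: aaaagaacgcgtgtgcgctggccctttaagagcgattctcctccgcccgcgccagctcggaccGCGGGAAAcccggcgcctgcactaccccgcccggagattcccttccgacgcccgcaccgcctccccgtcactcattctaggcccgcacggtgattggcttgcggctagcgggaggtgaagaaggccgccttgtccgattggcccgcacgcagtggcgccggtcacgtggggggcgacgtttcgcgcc

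A promoter was at hand for 56 of the 70 genes, and 18 of these (32.1%) held such a word, against 677 of 35116 promoters in the table (1.93%). Those promoters were not limited to expressed genes and had a median of 11 CG pairs, where TYMS, MCM3 and MCM7 had 28, 17 and 34. The list was made up of genes known as G1/S or E2F target genes, so these shares are not a test. Of the 18 genes, 0 were called by limma, edgeR or DESeq2, and 7 were higher and 3 lower at an unadjusted p under 0.05 in limma. By the adjusted p alone 4 were higher and 3 lower, where 11.8% of all genes were called in each direction. Their median log2 change was 0.07 and their range -0.51 to 0.85. TYMS stood at 0.85, and MCM3 and MCM7, both subunits of the replicative helicase, at 0.14 and -0.05. A word match describes the letters in the window and does not show binding.

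The CDK inhibitors held 1 called rise and 1 called fall among 7, against 2.18% and 2.16% of all genes. By the adjusted p alone 3 were higher and 3 lower, against 11.8% of all genes each way. CDKN1A (p21), which inhibits CDK2 and other cyclin-dependent kinases, had 2495, 2461 and 2331 in WT and 10527, 11784 and 8991 in E1. It was 4.30 times as high (log2 change 2.09 ± 0.07, adjusted p = 3.89e-14, limma), and F2 had 2786, 2928 and 2662, near WT. CDKN2B (p15) went the other way, with 870, 753 and 770 in WT, 245, 202 and 259 in E1 and 486, 575 and 519 in F2 (log2 change -1.76 ± 0.09 in E1). CDKN2A (p16 and ARF), its neighbour in the genome, had 1155, 1221 and 1316 in WT and 1579, 1884 and 1699 in E1, a log2 change of 0.48. CDKN1C (p57), an imprinted inhibitor, had 53.3, 63.1 and 38.8 in WT and 29.5, 32.8 and 18.5 in E1; its log2 change of -0.93 was short of the fold limit. Among 7 G1 cyclins and kinases, CCNE2 was called higher and CCND2, a D-type cyclin, lower, from 30.0 ± 0.629 to 9.35 ± 4.75 (SD, n = 3). By the adjusted p alone 5 of these 7 were higher and 1 lower, beside the same shares of all genes. CDK4 and CCND1 had log2 changes of 0.04 and 0.25.

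**Figure D3:**
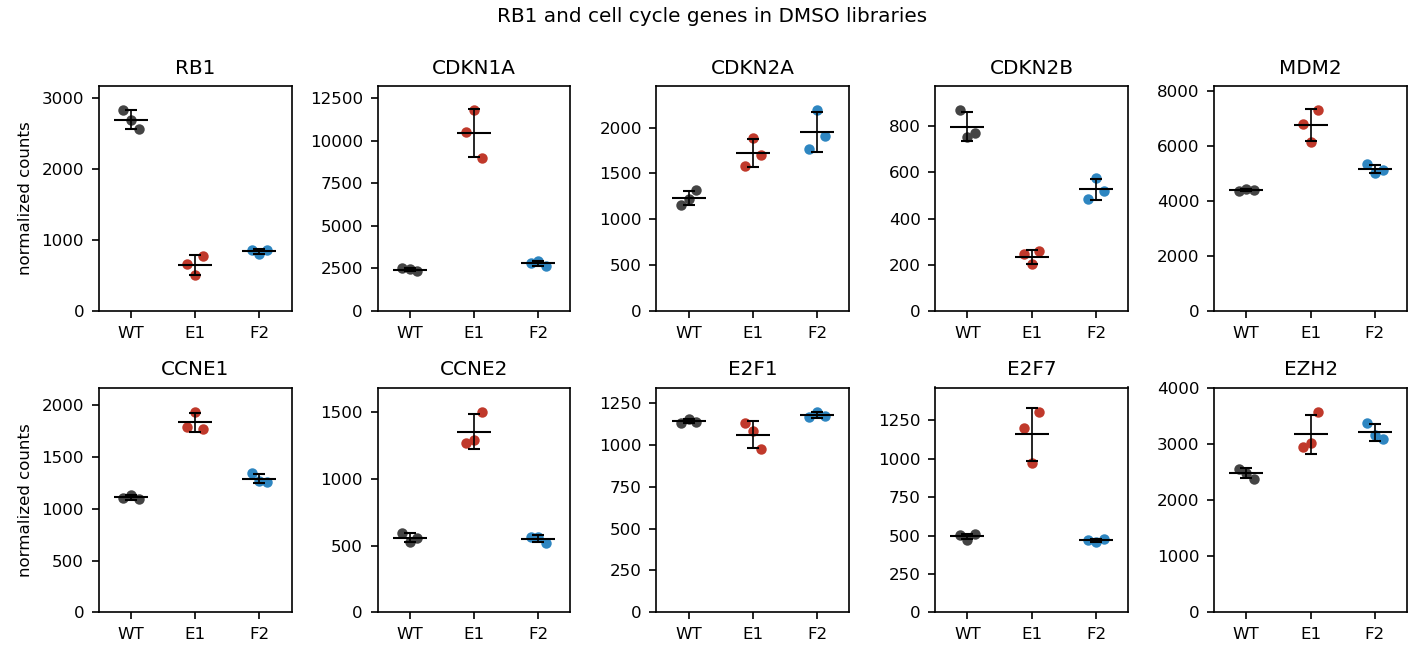
Normalized counts of 10 RB1 pathway and cell cycle genes in the DMSO libraries of WT, E1 and F2, with 1 point a library, a long bar at the mean and whiskers of 1 SD (n = 3). RB1 is low in both clones, CDKN1A, CCNE2 and E2F7 are high in E1 and near WT in F2, and E2F1 differs little between the lines.

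Targets of the transcription factor p53 held several called rises. Of 54 tested, 9 were called higher and 1 lower, against 2.18% and 2.16% of all genes. The adjusted p alone was passed by 42 upward and 3 downward, against 11.8% of all genes each way, and the median log2 change was 0.55, against -0.01 for all genes. EDA2R, a receptor of the TNF receptor family, had 69.9, 88.6 and 91.8 in WT, 1186, 1171 and 1278 in E1 and 57.4, 51.9 and 55.8 in F2. TRIM22, which is also interferon-induced, had 22.7, 13.2 and 25.6 in WT and 89.3, 89.8 and 115 in E1. With CYFIP2 and CDKN1A above, the called members, named after their values were seen, included DRAM1, a lysosomal regulator of autophagy (log2 change 1.65), FDXR, ferredoxin reductase (1.47), the translesion polymerase POLH (1.30) and the damage sensor DDB2 (1.19).

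The lower part of the p53 list was shorter. PLK2, a polo-like kinase, fell from 51.5 ± 9.09 to 17.3 ± 2.58 (SD, n = 3), and F2 had a log2 change of -1.64. MDM2, the ubiquitin ligase that limits p53 and is itself a target, had 4357, 4430 and 4408 in WT and 6822, 6153 and 7313 in E1 (log2 change 0.62 ± 0.07), under the fold limit. BAX, a pore-forming apoptosis gene, had a log2 change of 0.74. In F2 against the same WT libraries, 0 of the 54 genes were called higher and 3 lower by limma, edgeR or DESeq2. In limma 17 were higher and 12 lower at an unadjusted p under 0.05, with 13 higher and 11 lower by the adjusted p alone, beside backgrounds of 0.708% and 1.81% called and 8.57% and 12.5% by the adjusted p alone. Tested directly, E1 against F2, 11 of the 54 were higher in E1 and 1 lower, where 3.86% and 3.08% of all genes were called. Of 16 BCL2 family genes, which set the threshold for apoptosis, none was called in E1 against WT by limma, edgeR or DESeq2. In limma 4 were higher and 2 lower at an unadjusted p under 0.05. By the adjusted p alone 3 were higher and 1 lower, against 11.8% of all genes each way. HRK, a pro-apoptotic member, had -0.99 and MCL1, an anti-apoptotic one, 0.00.

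Few genes of chromatin complexes were called, where 2.18% of all genes were called higher and 2.16% lower. The adjusted p alone was passed by 11.8% of all genes each way. EZH2 had 2560, 2492 and 2383 in WT and 2944, 3011 and 3579 in E1, a log2 change of 0.35 ± 0.07 (adjusted p = 8e-04, limma), close to 0.37 in F2. Of 14 PRC2 genes, JARID2, an accessory subunit that helps recruit the complex, was called lower, from 94.3, 101 and 112 to 56.3, 37.6 and 41.9. JARID2 moved the other way in F2, with 217, 238 and 199. By the adjusted p alone 3 of the 14 were higher and 1 lower. Of 25 tested SWI/SNF genes none was called by limma, edgeR or DESeq2; in limma 3 were higher and 4 lower at an unadjusted p under 0.05, and 2 and 2 by the adjusted p alone. SMARCA4, the ATPase of the complex, had 13590, 13499 and 13336 in WT and 15189, 13233 and 10434 in E1, a wider spread about the same level.

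Cell surface and signalling genes held several on and off changes within lists whose medians stayed near 0, where 2.18% of all genes were called higher and 2.16% lower. Of 15 EPH receptors and ephrins, EPHA3 was called higher and EPHB2 lower, with 166, 178 and 190 in WT and 73.2, 67.6 and 61.4 in E1, and the median was 0.03. Among 24 other receptor tyrosine kinases 4 were higher and 2 lower. RET, the receptor for glial cell-derived neurotrophic factor, had 6.11, 12.3 and 6.62 in WT and 45.5, 38.6 and 27.3 in E1, and DDR1, a collagen receptor, rose by 1.25 on the log2 scale. NTRK3 and ERBB4 were the members called lower. Of 37 semaphorin, plexin, slit, robo and netrin genes, which guide axons and migrating cells, 4 were higher and 3 lower. NRP1, a co-receptor for semaphorins and VEGF, had 78.6, 45.2 and 42.6 in WT and 0.893, 1.93 and 0.974 in E1. PLXNA2, a semaphorin receptor, had 59.4, 82.0 and 56.8 in WT and 314, 243 and 258 in E1, whereas F2 held 0, 0 and 3.64. SEMA5B fell from 33.7 ± 1.52 to 8.31 ± 5.37 (SD, n = 3).

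Of 35 WNT pathway genes 4 were higher and 2 lower, against 2.18% and 2.16% of all genes, with a median of 0.11. WNT5A, a ligand of non-canonical WNT signalling, had 680, 626 and 644 in WT and 3256, 2514 and 3160 in E1; F2 lay between, with 1409, 1238 and 1352. The ligands WNT7B, WNT11 and WNT6 rose by 1.95, 1.45 and 1.04 on the log2 scale in E1 and had negative changes in F2. RSPO3, an enhancer of WNT signalling, fell from 71.6, 36.8 and 44.5 to at most 1 read per library in both clones. FRZB, a secreted WNT antagonist, had 109, 102 and 85.2 in WT and 0.893, 3.86 and 2.92 in E1; F2 held 578, 644 and 656.

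The 3 planar cell polarity genes called, of 18 tested, all rose, against 2.18% of all genes, while the list's median was 0.01. PRICKLE2, the paralogue of PRICKLE1, had 68.1, 67.9 and 63.4 in WT, 1423, 1034 and 1333 in E1 and 0 in each F2 library. FAT4, a giant cadherin, had 24.5, 21.7 and 14.2 in WT and 159, 147 and 173 in E1. In the TGF-beta and BMP list, 1 of 39 members was higher (BMP6) and 2 lower. LTBP1, which tethers latent TGF-beta in the matrix, had 2049, 1985 and 1916 in WT, 153, 172 and 174 in E1 and 6177, 6287 and 5535 in F2. BMP7 had 71.6, 71.6 and 66.2 in WT and 12.5, 5.79 and 16.6 in E1, and was lower still in F2.

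Of 20 collagen genes 5 were lower and 1 higher, against 2.16% and 2.18% of all genes, with a median of -0.30. COL9A1, a chain of the cartilage collagen IX, had 753, 689 and 792 in WT and 146, 140 and 158 in E1, and COL9A3, another chain of it, fell from 54.3 ± 2.47 to 15.5 ± 4.45 (SD, n = 3). COL5A3 fell by 1.54 on the log2 scale, and COL1A2, a fibroblast marker, rose from 115, 110 and 84.2 to 230, 340 and 312. Of 24 integrins and laminins 3 were lower and 1 higher. LAMB1, a laminin chain, had 79.5, 33.0 and 71.0 in WT and 1 read in each E1 library, and ITGA4, an integrin chain, had 148, 193 and 135 in WT and 11.6, 16.4 and 19.5 in E1. ITGAM, an integrin of myeloid cells, had 8.73, 14.1 and 3.79 against 23.2, 20.3 and 22.4, but its log2 change was 0.92 (adjusted p = 0.0502, limma) without WT replicate 3.

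The cadherins had a median of -0.88 over 8 genes, with 4 called lower and none higher, against 2.16% and 2.18% of all genes. In edgeR 1 was called higher, and in DESeq2 none. CDH1, the epithelial cadherin, had 256, 283 and 230 in WT and 8.04, 14.5 and 25.3 in E1, and 167, 165 and 114 in F2. It fell while the keratins KRT8 and KRT18, epithelial markers too, had log2 changes of 0.78 and 0.74. The part of the epithelial markers in the changes of adhesion genes was not tested. PCDH9 fell from 123, 116 and 99.4 to 11.6, 7.72 and 6.82. Of 34 contractile genes 1 was higher and 2 lower: CALD1, caldesmon, had 90.0, 96.1 and 58.7 in WT and 16.1, 0 and 13.6 in E1, and FHL1 fell to 40.2% of WT. TAGLN, transgelin, rose from 4438, 4228 and 3998 to 8182, 11349 and 6789, but missed the fold limit without E1 replicate 2 (log2 change 0.82) or without WT replicate 3 (0.98). Of 20 YAP and TEAD targets, F3, tissue factor, was higher, with 50.9, 58.9 and 49.7 in E1 over 14.8, 11.3 and 12.3 in WT. IGFBP3, an insulin-like growth factor binding protein, was lower, with 1 read in each E1 library and 120, 35.8 and 36.0 in WT.

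Second messenger, channel and neurotransmitter genes are given by list, where 2.16% of all genes were called lower and 2.18% higher. Of 9 cyclic nucleotide phosphodiesterases, PDE11A and PDE5A were lower and PDE2A higher, with 72.5, 89.5 and 68.1 in WT and 173, 225 and 151 in E1. Of 29 potassium channel genes, 2 were lower, among them KCNQ1 (log2 change -2.64), and none was higher. Of 22 neurotransmitter receptor genes 5 were lower and 3 higher. GABBR1, a subunit of the metabotropic GABA receptor, had 189, 158 and 359 in WT and 12.5, 7.72 and 9.74 in E1, and CHRNA4, a nicotinic receptor subunit, had 176, 202 and 179 against 39.3, 41.5 and 25.3. GABRD, a subunit of the ionotropic GABA receptor, had 20.1, 13.2 and 23.7 in WT and 58.9, 80.1 and 40.9 in E1. MAP2, a neuronal marker, had overlapping groups, with 24.5, 27.3 and 8.52 in WT and 1.79, 0.965 and 25.3 in E1; its call (log2 change -1.86) was lost without E1 replicate 1 (adjusted p = 0.144), E1 replicate 2 (0.17), WT replicate 1 (0.102) or WT replicate 2 (0.121) in limma.

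Immune genes held 13 called rises and 1 called fall over 3 lists, against 2.18% and 2.16% of all genes. Of 22 antigen presentation genes 5 were higher and none lower, with a median of 0.31. PSMB9, a subunit of the immunoproteasome, had 519, 561 and 521 in WT and 1780, 2493 and 1659 in E1, and TAP1, the peptide transporter encoded beside it, rose by 1.11 on the log2 scale. TAPBPL, a chaperone of MHC class I, rose from 8.00 ± 0.873 to 28.3 ± 1.57 (SD, n = 3), and HLA-DPA1, a class II chain, had 8.73, 4.71 and 1.89 against 17.9, 19.3 and 9.74. The call of HLA-DPA1 was lost in limma with the E1 and WT libraries in DMSO alone (adjusted p = 0.0536). It was kept in edgeR and DESeq2, as were PSMB9 and TAPBPL, and each of these tools called 4 genes of the list. Of 33 interferon-stimulated genes and sensors 2 were higher: TLR3, a sensor of double-stranded RNA, had 7.86, 8.48 and 4.73 in WT and 67.9, 71.4 and 88.6 in E1, and TRIM22 is given above. The median of that list was 0.06. Of 17 cytokines and chemokines 6 were higher and 1 lower, with a median of 0.49. After IL6 came TNF, from 9.61, 4.71 and 2.84 to 18.8, 32.8 and 23.4, and IL23A (log2 change 2.00), TNFSF9 (1.46), IL34 (1.19) and CSF1 (1.08), named after their values were seen. TNFSF10, the death ligand TRAIL, had 22.7, 20.7 and 15.1 in WT and 3 reads or fewer in each E1 library. The leukocyte markers PTPRC, CD3E and CD14 had 3 reads or fewer in all 6 libraries.

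Among all genes 2.18% were called higher and 2.16% lower. Of 30 tested HOX genes, the members called higher were HOXB6, HOXB8 and HOXB9 (log2 changes 1.90, 1.55 and 1.38) and those called lower HOXD9 and HOXD8 (-2.06 and -1.30). HOXB6 had 183, 170 and 220 in WT and 692, 847 and 615 in E1, and HOXD9 had 47.2, 52.8 and 66.2 against 11.6, 18.3 and 8.77. Of 56 developmental transcription factors 5 were higher and 7 lower. GATA6, an endoderm factor, fell from 23.1 ± 6.35 (SD, n = 3) to 1 read in all, TLX3 from 21.0 ± 4.70 to 1 read in all, and TWIST1, a mesenchymal factor, from 26.2, 24.5 and 12.3 to at most 1.95. Of 7 tested genes in the cancer-testis and germline list, SYCP2, a component of the synaptonemal complex (230, 230 and 273 against 103, 80.1 and 104), was lower. So was PGBD5, the domesticated transposase gene given above, which the list also held.

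Lists of basic cell functions and the list of imprinted genes held no gene called in limma. Over all genes 2.18% were called higher and 2.16% lower, and 11.8% passed the adjusted p alone in each direction. None of 78 ribosomal protein genes, 13 mitochondrially encoded mRNAs, 36 cholesterol and fatty acid synthesis genes or 23 imprinted genes passed the rule in limma or DESeq2, and edgeR called 1 imprinted gene higher. At an unadjusted p under 0.05 in limma, in that order, 1 was higher and 10 lower, 0 and 0, 4 and 6, and 4 and 8. By the adjusted p alone there were 0 higher and 2 lower, 0 and 0, 2 and 1, and 3 and 8. The 8 lower genes were among the 23 imprinted genes. The medians of the lists, in the same order, were -0.09, 0.00, -0.02 and -0.12. Their most strongly expressed members were RPL3, MT-CO1, SCD and GNAS, with log2 changes of -0.14, -0.02, 0.17 and -0.23. MT-CO1 ranged from 228473 to 370442 in E1 and from 286261 to 320638 in WT.

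**Figure D4:**
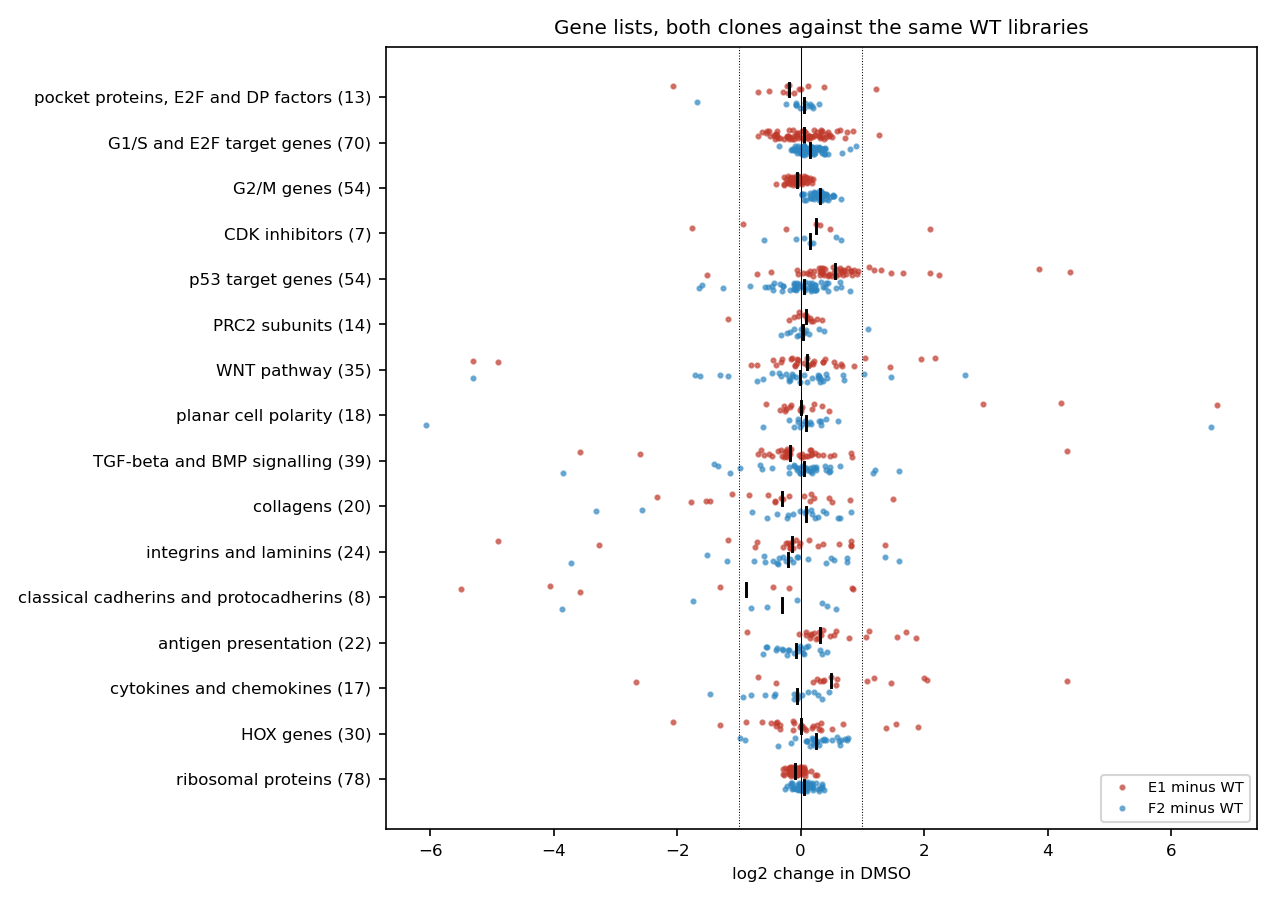
Log2 change in DMSO for each tested member of 16 gene lists, E1 minus WT in red and F2 minus WT in blue, both against the same WT libraries; the number tested is in brackets, black ticks mark medians, and dotted lines a log2 change of 1 in size. The p53 targets of E1 are shifted to the right (median 0.55), while the G1/S genes (0.05) and ribosomal proteins (-0.09) stay near 0.

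Some called genes were neighbours in the genome. By RefSeq gene order, 13120 of the tested genes (86.8%) and 552 of the called ones (84.0%) could be placed. Of 265 called higher genes, 51 (19.2%) had an adjacent tested gene that was also higher, against 3.65% of the remaining genes. Of 287 called lower genes, 40 (13.9%) had an adjacent lower one, against 4.07%. Adjacent pairs called in the same direction numbered 47 and in opposite directions 9, and the former formed 44 runs, 41 of 2 genes and 3 of 3.

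The runs held several of the largest changes. NTRK3 and LINC00052 fell together on chromosome 15, PDE11A fell with AGPS (-1.16) on chromosome 2, RAG1 and RAG2, the recombinase genes of lymphocytes, fell on chromosome 11 (-2.22 and -6.06), and ZNF732 and ZNF141 on chromosome 4 (-5.05 and -2.71). HMCN1 rose with its neighbour IVNS1ABP on chromosome 1, which had 2198, 2103 and 2090 in WT and 10460, 10047 and 11881 in E1. ARHGAP29 (3.87) rose with ABCA4 (2.63) on chromosome 1, and TNFSF9, CD70 and C3 formed a run of 3 on chromosome 19 (1.46, 2.08 and 1.94). TFAP2A, TFAP2A-AS1 and LINC00518 rose on chromosome 6. For overlapping or antisense partners such as TFAP2A-AS1, reads of one gene may be counted for the other, since the strand setting of the counting is not given in the sources used here. Median log2 changes by chromosome ranged from -0.06 on X to 0.03 on Y, and from -0.06 on 4 to 0.02 on 22 among autosomes.

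The tazemetostat libraries gave a second comparison of E1 with WT whose means shared no library with the first; both took their spread from all 18 libraries. There 1408 genes were called (9.31%), 738 higher (4.88%) and 670 lower (4.43%). Of the 330 genes higher in DMSO, 131 (39.7%) were again called higher under tazemetostat and 12 were called lower; 79.7% had a positive difference, against 49.9% of all genes. Of the 327 lower genes, 158 (48.3%) were again called lower and 8 higher, and 82.6% had a negative difference, against 50.1% of all genes. The median difference of the higher genes was 1.49 in DMSO, the contrast that chose them, and 0.74 under tazemetostat, and that of the lower genes was -1.58 and -0.97.

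Some genes were called in both treatments and others in DMSO alone. LINC00052 was called in both, with a log2 difference of -8.12 under tazemetostat, as did ARSD (-8.02), RP11-493L12.3 (7.07) and TLR3 (3.06). CDKN1A differed by 1.33 (adjusted p = 3.3e-11, limma), with means of 4285 ± 108 in WT and 10740 ± 168 in E1 (SD, n = 3). PRICKLE2 was not called there, with 4193 ± 168 in WT and 3880 ± 74.9 in E1 (SD, n = 3). PGBD5 had 852 ± 14.7 in WT and 999 ± 37.5 in E1 (SD, n = 3) with the drug, and BMP7 813 ± 30.8 and 793 ± 19.7. LTBP1 in E1 had 166 ± 11.8 with DMSO and 2158 ± 109 with the drug (SD, n = 3), and in WT 1983 ± 66.4 and 1759 ± 140. The change of the difference with treatment was itself tested in 1 model. By the call rule the difference shrank or reversed under tazemetostat for 131 of the higher and 126 of the lower genes. It grew in its DMSO direction for 4 and 14. Among the reversals, HLA-DPA1 went from 1.56 to -2.37 and CDK14 from -1.17 to 2.18, so both ended larger in size. Of all genes 8.02% were called in this test, 4.09% with a more positive and 3.93% with a more negative difference under tazemetostat. That test shares the DMSO libraries with the contrast that chose the genes.

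MKI67 and CCNA2, not called in DMSO, differed between E1 and WT under the drug. MKI67 had 5797 ± 214 in WT and 15862 ± 943 in E1 (SD, n = 3) with tazemetostat, and CCNA2 1128 ± 141 and 3039 ± 236. Of the 70 G1/S genes 41 were then higher in E1 and of the 54 G2/M genes 36, where 4.88% of all genes were called higher. In DMSO these counts were 1 and 0, with 2.18% of all genes. EZH2, itself an E2F target, had 876 ± 42.1 in WT and 2989 ± 63.3 in E1 (SD, n = 3) with the drug. For the p53 targets, 7 were called higher and 2 lower under tazemetostat, against 4.88% and 4.43% of all genes, with a median of 0.38.

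The response of the same genes to tazemetostat was read in F2, whose levels are not in the difference between E1 and WT, although its libraries enter the spread that limma estimated for the calls. With that spread taken from the E1 and WT libraries in DMSO alone, 607 of the 657 genes were called. Of the 330 higher genes, 179 (54.2%) rose in F2 with tazemetostat and 14 (4.24%) fell, against 6.95% and 4.19% of all genes tested. Of the 327 lower genes, 122 (37.3%) rose and 60 (18.3%) fell. The called genes were weaker in expression than the rest, as given above, and the part of that in these shares was not tested.

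**Figure D5:**
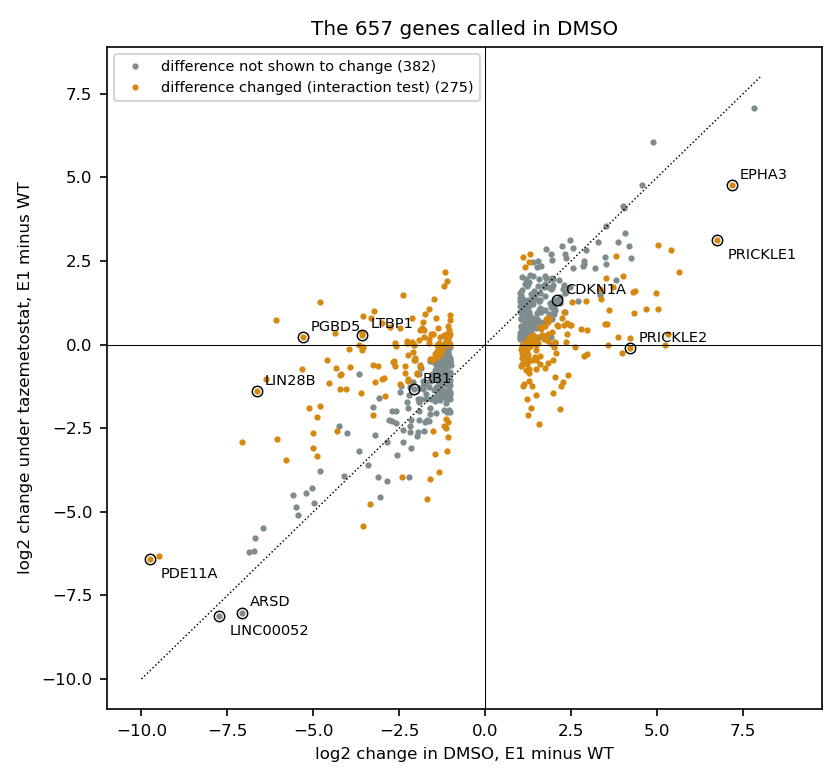
Log2 difference between E1 and WT under tazemetostat against that in DMSO for the 657 genes called in DMSO, with 1 point a gene and the line of equal values dotted. Orange points are the genes whose difference changed with treatment by the call rule (131 and 126 shrinking or reversing, 4 and 14 growing). PRICKLE2 and PGBD5 lie near 0 on the vertical axis, and LINC00052 and ARSD near the line.

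The RB1-deleted clones differed from each other in DMSO. Against the same WT libraries F2 had 380 called genes (2.51%), 107 higher and 273 lower, and since both clones share those controls the counts stand side by side only. The direct test of E1 against F2 called 1049 genes, 583 higher and 466 lower in E1 (6.94%). HMCN1 differed by 12.49 on the log2 scale, PRICKLE2 by 10.29, NTRK3 by -10.68 and PDE11A by -10.41, each with 1 clone at or near 0. RB1 differed by -0.39 ± 0.11 (adjusted p = 0.0061, limma). For TMEM117 and RSPO3 no difference between the clones was called: E1 minus F2 was -0.01 (95% interval -0.29 to 0.27) and -0.02 (-0.74 to 0.71), with adjusted p of 0.96 and 0.98 in limma.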

How the data were processed

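RNA-seq libraries of G401 cells were analysed from a table of normalized gene counts deposited by the authors. Per the submitters' processing notes, Trim Galore 0.4.4, STAR 2.6.0a, HTSeq, DESeq2 and build hg19 were used; their roles, the annotation and the strand setting are not given in the sources used here. The deposited signal values are gene counts divided by a size factor for each library: whole reads were recovered for 100% of values in each library (tolerance 1e-06). From these, log2(value + 1) was fitted with limma 3.58.1 (R 4.3.3; trend, 6 group means, 18 libraries, two-sided) over the 15116 genes with a mean of at least 10. edgeR 4.0.16 and DESeq2 1.42.0 on recovered reads were alternatives. P-values measure the spread between cultures within the 6 groups of 18 libraries, and not that between independent clones. Comparisons were E1 against WT in DMSO and under tazemetostat, E1 against F2, and the change of the E1 and WT difference with treatment. Intervals rest on the limma SE, which takes the spread between cultures from all 18 libraries. The floor of 3 reads covers counting error only. Genes named were 15 set genes, the 12 largest called rises and falls with a mean of at least 50 and separate groups, the 3 largest called members of each of 40 gene lists (or the most expressed member), and 3 tested genes on either side of RB1; others are named as chosen after their values were seen, or as genomic neighbours, examples beside these or sequence examples. Some genes that this rule names are not reported here. Members and lists were chosen with earlier results of these data known. The fit was tested on simulated data.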

Additional observations from a re-analysis of the deposited data

Results flagged for a closer look

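Of 35 genes with fixed or largest changes examined, the difference between E1 and WT changed with treatment in 20 and E1 differed from F2 in DMSO in 24, each by the call rule in limma; over all genes these tests called 1212 and 1049. Values are log2 differences, and both tests share libraries with the contrast that chose the genes.

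The difference between E1 and WT, tazemetostat minus DMSO, was positive for genes low in E1 with DMSO: PGBD5 5.54, ERBB4 5.36, LIN28B 5.26, ADCYAP1 4.19, PDE11A 3.35 and NTRK3 3.16. Of these, ADCYAP1, PDE11A and NTRK3 stayed at or near 0 in E1, with means of 0, 2.02 and 3.19 under the drug. Their WT means fell from 189, 864 and 723 with DMSO to 9.84, 244 and 262 under the drug. The difference was also positive for the proliferation genes CCNA2 (1.70), MKI67 (1.60), RBL1 (1.54) and EZH2 (1.42). It was negative for genes high in E1 with DMSO: TMEM117 -3.96, PRICKLE1 -3.63, HMCN1 -3.45, FAM129A -3.42, BMP6 -3.37, CYFIP2 -2.76, IL6 -2.74, AF127936.7 -2.58, EPHA3 -2.40 and RP11-115D19.1 -2.03.

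E1 minus F2 in DMSO was positive for HMCN1 (12.49), RP11-493L12.3 (8.78), AF127936.7 (7.03), EPHA3 (6.02), RP11-115D19.1 (5.96), IL6 (5.78), BMP6 (5.73), CYFIP2 (5.61), FAM129A (2.43) and CDKN1A (1.89). It was negative for NTRK3 (-10.68), PDE11A (-10.41), LINC00052 (-8.27), AC012499.1 (-7.38), ZNF813 (-6.92), GYLTL1B (-6.87), ARSD (-5.21), PGBD5 (-4.67), ADCYAP1 (-3.46), LIN28B (-3.33), ERBB4 (-2.15), PCDH17 (-1.63), CDKN2B (-1.16) and CDKN1C (-1.09).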

How the results depend on the processing

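The 657 genes called between E1 and WT in DMSO became 1061 without the filter on low values, 328 with a mean of at least 50, 3563 without the fold limit and 213 with a log2 limit of 2. In the same order the 1049 genes called between E1 and F2 became 1739, 596, 5809 and 295, and the 1408 called between E1 and WT under tazemetostat 2452, 889, 7826 and 181. The 1212 genes whose difference changed with treatment became 5293 without the fold limit and 186 with a log2 limit of 2. Leaving out 1 library at a time gave 638 to 687, 1045 to 1086, 1390 to 1464 and 1104 to 1452 genes. Adding the replicate block gave 657, 1049, 1417 and 1217 genes. Same-numbered E1 and WT libraries in DMSO had correlations of -0.15, 0.09 and 0.08 of their deviations from the group means. Those of differently numbered libraries ran from -0.22 to 0.18. No pairing by replicate number was seen in these values, which cannot show whether the cultures were handled in matched sets. edgeR called 683, 1076, 1414 and 1228 genes and DESeq2 657, 1048, 1387 and 1163. Scaling every library to the same total moved the split of calls to 846 higher and 565 lower under tazemetostat and to 737 and 489 for the change with treatment. No named call changed direction in these settings. Of 80 named calls, HLA-DPA1 (adjusted p = 0.0536) and MAP2 (0.181) were lost in limma with only the compared groups, and MAP2 also in edgeR (0.162) and DESeq2 (0.26). CDKN1C was called in limma without E1 replicate 1, E1 replicate 2 or WT replicate 3 (log2 changes -1.01, -1.09 and -1.12). Leaving out each E1 or WT library with DMSO, an alternative chosen after seeing the data, gave 8 to 11 p53 targets called higher (median log2 change 0.52 to 0.58) and 1 G1/S gene. Depth limits the genes with few reads: a gene at 0 in E1 has a bound and no fold.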
